A study of Mus musculus with 4 samples.

Results

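The regions described here are stretches of the mouse genome that carried an H3K27ac peak in both libraries of liver sinusoidal endothelial cells (LSECs) and that lay at an end of a long noncoding RNA (lncRNA) gene, away from protein-coding genes. The mark was profiled in LSECs isolated from mice by ChIP-Seq, in 2 libraries labelled C2 and C3 and called replicate 2 and replicate 3 below, and each had an input library of the same number that was not analysed here. Both libraries belong to 1 condition, so no groups were compared and no test was run. The labels give the cell type and the antibody but not the genotype, strain, age, or treatment of the mice, and nothing says whether the libraries came from separate animals. The study's methods describe the LSECs as cells picked with beads that carry an antibody to CD146, so other CD146-bearing cells could be among them. The peaks of both libraries were pooled on mm10 (GRCm38), and peaks that overlapped by at least 1 bp were merged. A merged region was kept when it held a peak of each library, lay within 1 kb of either end of a lncRNA gene, was outside every protein-coding gene body, and was more than 2.5 kb and at most 100 kb from the nearest protein-coding gene end. Of 64629 merged regions, 24199 were shared by the libraries (37.4%), and 601 of these met the rule. They touched the ends of 563 lncRNA genes, of which 192 had a curated RefSeq transcript and the others had predicted models only.

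LncRNAs are transcripts that are spliced and capped much like messenger RNAs but are not translated into known proteins. Some act in the nucleus on chromatin or splicing, some act in the cytoplasm, some are the precursors of small nucleolar RNAs or microRNAs, and for many the act of transcription or the DNA at the promoter, rather than the RNA, is what affects a neighboring gene. H3K27ac is laid down by the acetyltransferases CBP and p300 at active promoters and at active enhancers, and many enhancers are themselves transcribed into noncoding RNA. A peak at a lncRNA end can therefore lie on a promoter or on an enhancer, and H3K27ac by itself does not tell them apart. LSECs are the fenestrated endothelial cells that line the hepatic sinusoids and take up waste molecules from portal blood.

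The promoters of 5 of the most enriched regions at a lncRNA 5′ start are printed first. They were picked, not taken strictly by rank, because they show the contrast in CpG content on which later values turn. Each is 300 bases of the GRCm38.p6 reference as tabled by RefSeq, written 5′ to 3′ on the strand of the lncRNA, and the annotated start is base 251. Capitals mark matches, on either strand, to GGGCGG, the core of the Sp/Klf box, to the CCAAT box, to the Ets letters CAGGAAG, to the AP-1 heptamer TGACTCA, and to the GATA letters AGATAAG. D130051D11Rik, an uncharacterized lncRNA, was read at chr15:85634346-85634645 on the plus strand. Dancr, a host gene of small nucleolar RNAs, was read at chr5:74092810-74093109 on the plus strand, and Chaserr, the lncRNA upstream of the chromatin remodeler gene Chd2, at chr7:73558346-73558645 on the minus strand. The predicted lncRNAs Gm39575 and Gm9875 were read on the plus strand at chr11:6694659-6694958 and chr2:13558653-13558952.
D130051D11Rik: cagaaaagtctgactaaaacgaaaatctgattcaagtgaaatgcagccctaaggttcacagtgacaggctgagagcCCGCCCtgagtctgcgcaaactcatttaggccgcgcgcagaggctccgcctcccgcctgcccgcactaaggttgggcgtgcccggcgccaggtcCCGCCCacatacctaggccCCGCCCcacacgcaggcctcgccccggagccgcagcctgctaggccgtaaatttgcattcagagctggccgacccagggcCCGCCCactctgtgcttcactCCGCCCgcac
Dancr: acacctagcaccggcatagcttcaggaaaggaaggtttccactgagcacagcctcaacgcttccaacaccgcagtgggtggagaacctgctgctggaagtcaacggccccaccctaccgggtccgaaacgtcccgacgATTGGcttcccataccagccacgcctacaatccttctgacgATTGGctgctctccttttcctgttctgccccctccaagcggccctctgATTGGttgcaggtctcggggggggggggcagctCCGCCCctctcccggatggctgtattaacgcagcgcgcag
Chaserr: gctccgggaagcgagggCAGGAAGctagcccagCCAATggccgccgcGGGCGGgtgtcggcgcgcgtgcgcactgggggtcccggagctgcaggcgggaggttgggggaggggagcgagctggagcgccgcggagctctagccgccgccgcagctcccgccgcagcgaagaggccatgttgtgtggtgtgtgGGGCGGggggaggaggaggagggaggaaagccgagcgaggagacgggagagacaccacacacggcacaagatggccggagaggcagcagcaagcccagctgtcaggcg
Gm39575: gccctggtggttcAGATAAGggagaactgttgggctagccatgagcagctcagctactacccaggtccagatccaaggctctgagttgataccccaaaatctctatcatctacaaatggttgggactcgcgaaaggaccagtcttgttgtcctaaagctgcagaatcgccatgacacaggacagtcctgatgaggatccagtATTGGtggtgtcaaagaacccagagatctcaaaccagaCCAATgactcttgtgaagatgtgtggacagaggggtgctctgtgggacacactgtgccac
Gm9875: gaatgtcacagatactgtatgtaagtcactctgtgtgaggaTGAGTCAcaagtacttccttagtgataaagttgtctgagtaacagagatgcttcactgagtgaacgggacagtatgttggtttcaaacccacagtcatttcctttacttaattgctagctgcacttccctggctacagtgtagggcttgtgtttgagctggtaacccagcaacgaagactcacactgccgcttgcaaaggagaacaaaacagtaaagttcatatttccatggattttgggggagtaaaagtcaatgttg
The first 3 of these sequences were rich in CpG, with 23 CpGs in D130051D11Rik, 18 in Dancr, and 30 in Chaserr. The last 2 held 3 CpGs each, and their GC content was 51.0% in Gm39575 and 43.0% in Gm9875. Of similar rank but not printed were 1700096K18Rik, 2210406O10Rik, and 5430416N02Rik, with 33, 19, and 22 CpGs. CpG-poor starts were therefore rarer among the most enriched regions than the printed set shows. D130051D11Rik held 5 GGGCGG matches, Dancr held 3 CCAAT matches and 1 GGGCGG match, Gm39575 held a GATA match and 2 CCAAT matches, and Gm9875 held a single AP-1 match. The acetylated region of Gm39575 began at chr11:6694737, so the GATA match lay outside it. Its summits were 559 and 554 bp past the start in replicates 2 and 3, beyond the printed bases. A match shows only that the letters are present and does not show that a factor bound there.

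The authors' list for replicate 2 held 26975 peaks and that for replicate 3 held 64498, with median fold enrichments over background of 9.76 and 8.89. Because a region had to have a peak in the shorter list, shared regions of every kind sat higher in the longer list. Read depth is unknown from these files, and the 601 regions took only 213 different fold enrichments in replicate 2 against 441 in replicate 3, so replicate 2 was graded more coarsely. As a check of the cell label, a shared region lay within 1 kb of an end of 18 of 26 LSEC marker genes and 42 of 62 general endothelial genes, compared with 44.1% of all protein-coding genes. The counts were 4 of 28 for hepatocyte markers, 1 of 23 for hepatic stellate cell markers, 6 of 21 for Kupffer cell markers, 1 of 12 for cholangiocyte markers, and 3 of 20 for lymphocyte markers. The share was higher than in either endothelial list, 55 of 61 genes, on a list of AP-1, stress, and NF-κB genes that names no cell type. The part that other cells played in any single region was not tested.

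Among merged regions at the same kind of place, 601 of 1499 held a peak of each library (40.1%; 95% Wilson interval, 37.6% to 42.6%). Another 897 had a peak in replicate 3 only, and 1 had a peak in replicate 2 only. The share was 29.8% (29.1% to 30.6%) among 13468 merged regions of the same distance band with no lncRNA end nearby, and 61.2% (60.4% to 62.0%) among 14675 regions within 1 kb of a protein-coding gene end. The lncRNA-end share was thus close to the 37.4% of all merged regions. It was slightly above that value here and below it (36.3%) with a window of 2.5 kb around lncRNA ends. The share was above that of other intergenic regions and below that of coding ends, with intervals that do not overlap between these 3 places. These intervals cover counting error only, since neighboring regions are not independent. The regions with a replicate 3 peak only were weak, with a median fold enrichment of 6.51 and a maximum of 33.2. Seen from the genes, 560 of 6774 lncRNA genes with an end in this band had a shared region there (8.27%; 7.63% to 8.95%), compared with 16.5% of all 12727 lncRNA genes wherever they lie.

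Fold enrichment at the lncRNA ends spanned more than an order of magnitude in each library. In replicate 2 it ran from 4.07 to 46.8 with a median of 9.70, and the quartiles were 6.78 and 16.3. In replicate 3 it ran from 3.41 to 161 with a median of 25.7, and the quartiles were 15.6 and 42.4. The fold enrichments of the libraries are on separate scales, so each region was also placed by its percentile in the library's own list of peaks. The median percentile was 49.3 in replicate 2 and 80.0 in replicate 3, and 290 and 562 of the 601 regions stood above the median of the respective lists. Of all 24199 shared regions, 13015 and 22500 stood above those medians, so a high standing in replicate 3 was common to shared regions. In the top 10% of both lists were 41 regions (6.82%), compared with 4.05% of the other intergenic shared regions, 21.1% of those at coding ends, and 10.5% of all shared regions.

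**Figure D1:**
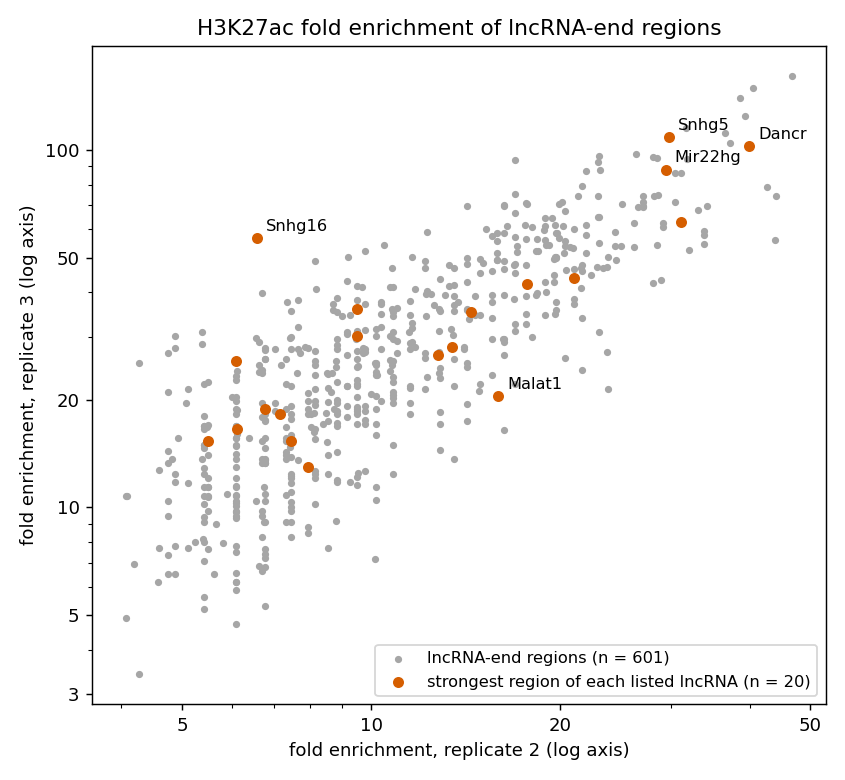
Fold enrichment of the strongest peak of each of the 601 lncRNA-end regions (points) in replicate 2 (horizontal, log axis) and replicate 3 (vertical, log axis); colored points are the strongest region of each of 20 listed lncRNAs. The regions rise together in both libraries (Spearman rho = 0.82), Snhg16 lies far above the cloud, and the vertical stripes are the coarse steps of replicate 2.

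The libraries ordered these regions alike. Spearman's rho between the fold enrichments was 0.82 across the 601 regions, compared with 0.77 across the 4020 other shared regions of the same distance band and 0.88 across the 8983 shared regions at coding ends. These are descriptions across regions of the same pair of libraries, not across samples. The summits of the strongest peaks were a median of 30 bp apart, and 523 pairs (87.0%) were within 100 bp. The rule did not use summits, but it required peaks to overlap, which by itself limits how far apart most summits can lie. The share of such pairs was 89.2% in the other intergenic regions and 90.1% at coding ends, close to that at lncRNA ends.

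Regions at lncRNA ends lay between the other intergenic regions and the coding ends in median fold enrichment, percentile, and width. The other intergenic shared regions had median fold enrichments of 8.81 in replicate 2 and 21.2 in replicate 3, at percentiles 43.5 and 76.2. The regions at coding ends had medians of 14.9 and 43.0, at percentiles 71.3 and 89.2. All 24199 shared regions together had medians of 10.5 and 27.03, at percentiles 53.8 and 81.0, and a median width of 701 bp, so the lncRNA-end regions were close to the average shared region. The quartile ranges of all 3 kinds of place overlapped, as the plot of percentiles shows. The median width was 696 bp at lncRNA ends (range, 173 to 5442 bp), 572 bp in the other intergenic regions, and 961 bp at coding ends. More than 1 kb was covered by 28.3% of the lncRNA-end regions, 14.0% of the other intergenic regions, and 46.2% of those at coding ends. A wide region reaches a gene end more easily than a narrow one, and wide regions were stronger (rho between width and replicate 3 fold enrichment, 0.59 across the lncRNA-end regions), so the rule itself favors width and, with it, fold enrichment. How much of the difference from other intergenic regions this accounts for was not tested.

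**Figure D2:**
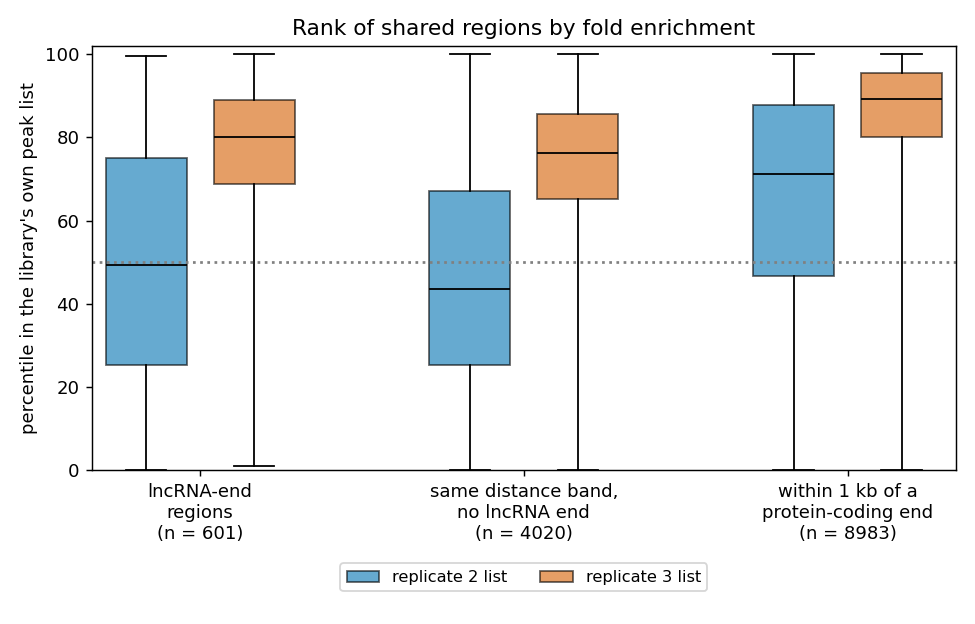
Percentile of each shared region's strongest peak in its own library's list, by fold enrichment (vertical axis), for 3 kinds of place and both libraries; boxes are quartiles with the median as a line, whiskers run from the lowest to the highest region, and the dotted line is the 50th percentile. The lncRNA-end boxes (medians 49.3 and 80.0) sit above those of the other intergenic regions (43.5 and 76.2) and below those of coding ends (71.3 and 89.2).

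The regions lay more often at the beginning of a lncRNA gene than at its end. Of the regions whose lncRNA strand is given in the promoter table, 284 were near a 5′ end only, 135 near a 3′ end only, and 39 near both, while the strand was not known for 143. The rule treats both ends alike, and 67.8% (63.2% to 72.1%) of the 419 regions at 1 kind of end were at the 5′ end. Among regions with a replicate 3 peak only, the share was 63.6% (59.7% to 67.3%) of 626, and these intervals overlap. The 5′ regions had median fold enrichments of 10.1 and 26.1 in replicates 2 and 3, and the 3′ regions had 8.81 and 19.6. The regions near both ends had the highest medians, 16.9 and 47.1, and were also the widest, at 1006 bp compared with 729 bp at 5′ ends and 618 bp at 3′ ends.

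The summits clustered at the annotated start. Measured from the 5′ start, with positive values reaching into the gene, the median summit position of 323 regions was -18 bp in replicate 2 and -19 bp in replicate 3. Summits within 500 bp of the start made up 64.1% in replicate 2 and 65.3% in replicate 3. The fullest bin was the 200 bp just before the start, with 87 regions in replicate 2 and 92 in replicate 3, and the 200 bp just after it held 54 and 55. The rule limits how far a summit can lie from an end and reaches equally far to both sides, so a median near the start says little by itself. It does not set in which bin within that limit a summit falls. How the bins would look under even placement was not tested.

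**Figure D3:**
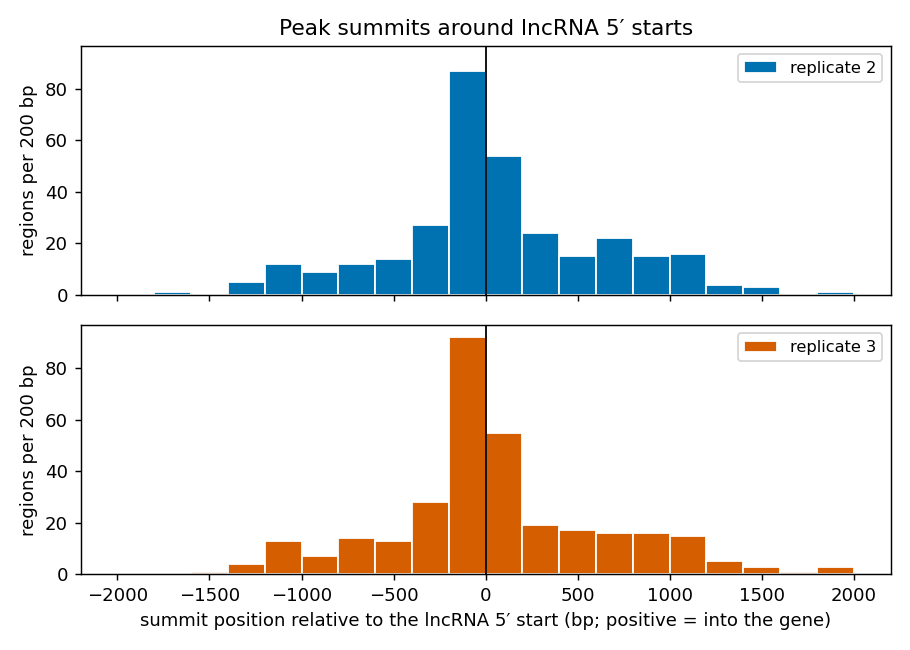
Position of the strongest peak's summit relative to the lncRNA 5′ start (horizontal axis, bp, positive values into the gene) for 323 regions, as regions per 200 bp bin (vertical axis), in replicate 2 (top) and replicate 3 (bottom). In both libraries the tallest bar, 87 and 92 regions, is the bin just before the start, with a lower shoulder of 54 and 55 just after it.

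CpG content was higher in the lncRNA promoters with a region than in those of intergenic lncRNAs with no peak of either library. Of the 306 tabled lncRNA promoters at a region's 5′ end, 76 (24.8%) were CpG-rich, here a GC content of at least 50% and an observed/expected CpG ratio of at least 0.6. Only 4.25% of 3932 promoters of intergenic lncRNAs with no peak of either library were CpG-rich, compared with 75.7% of 7840 promoters of coding genes with a shared region at an end and 33.5% of all 32851 promoters in the table. The median observed/expected ratio was 0.38 with a region, 0.21 without a peak, and 0.80 at the coding promoters. Thus most lncRNA promoters with a region, like those of Gm39575 and Gm9875 printed above, were not CpG-rich. The 76 regions at a CpG-rich promoter had median fold enrichments of 15.1 (quartiles, 8.13 and 20.3) in replicate 2 and 41.9 (25.6 and 58.6) in replicate 3, close to those of coding ends. The 240 regions at other promoters had medians of 10.1 (6.96 and 16.9) and 25.2 (16.6 and 40.2), and the quartile ranges overlapped. Their median widths were 939 bp and 707 bp. Base composition can also affect how well a fragment is amplified and mapped, and its part here was not tested.

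**Figure D4:**
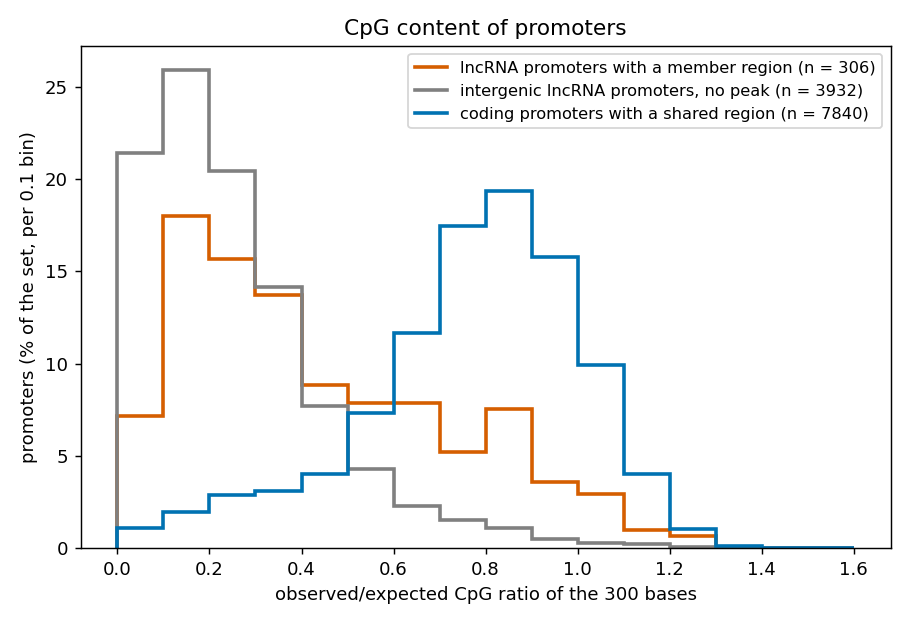
Observed/expected CpG ratio of the 300 bases around the start (horizontal axis) as the share of promoters per bin of 0.1 (vertical axis, %) for lncRNA promoters with a region (n = 306), intergenic lncRNA promoters with no peak (n = 3932), and coding promoters with a shared region (n = 7840). The lncRNA promoters with a region are fewer in the lowest bin than the no-peak promoters (7.19% against 21.4%) and have a longer upper tail, and 24.8% of them are CpG-rich against 4.25% and 75.7%.

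The motif search gave the same order for GC-rich letters and another one for AP-1. GGGCGG, on either strand, was present in 29.4% of the 306 lncRNA promoters with a region, 9.99% of those with no peak, 68.5% of the coding promoters, and 35.7% of all promoters. The AP-1 heptamer TGACTCA was present in 31 of the 306 (10.1%), in 6.61% of the no-peak promoters, in 3.09% of the coding promoters, and in 5.20% of all promoters. The E-box CACGTG was present in 11.8%, 5.42%, 11.1%, and 7.15%, in that order. In the same order of sets, the TATAAA box was present in 14.1%, 16.6%, 6.56%, and 13.6%, and CCAAT in 34.3%, 37.1%, 40.9%, and 37.4%. The cyclic AMP element TGACGTCA was present in 2.61%, 0.788%, 3.76%, and 1.79%. The Ets letters ACCGGAAG were present in 3.27% and 0.738%, and CAGGAAG, which shares its last letters with the other Ets motif, in 55 of 306 promoters with a region and 14.8% without a peak. GATA letters AGATAAG were present in 4.90%, 4.09%, 1.65%, and 3.04%, and the forkhead letters TGTTTAC in 3.27%, 5.57%, 2.32%, and 3.65%. The Sox letters ACAAAGG were present in 7.19%, 7.32%, 4.03%, and 5.88%. NF-κB sites were present in 0.327% (1 promoter), 0.203%, 0.293%, and 0.244%. These shares have no test, and sets that differ in base composition differ in the matches that composition alone gives.

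From here on, a pair of values joined by "and" gives a region's fold enrichment in replicate 2 and then in replicate 3. The 10 regions with the highest mean percentile were led by D130051D11Rik, whose region at chr15:85634204-85635228 had fold enrichments of 46.8 in replicate 2 and 161 in replicate 3, the highest of all 601 in each. Its nearest coding gene was Wnt7b, which encodes a Wnt ligand, at 52.4 kb. The region of 1700096K18Rik (chr5:25529157-25530576) followed with 40.6 and 149, and that of 2210406O10Rik (chr5:36464508-36466362), 7.31 kb from Tada2b, with 38.6 and 140. Both lie at CpG-rich starts. Gm39575 (chr11:6694737-6696201) had 39.3 and 124 and lay 17.3 kb from Ramp3, which encodes a partner protein of the calcitonin-like receptor in adrenomedullin signaling. Dancr (chr5:74092530-74093535) had 39.9 and 103, and Chaserr (chr7:73557779-73559415), 16.0 kb from Chd2, had 36.6 and 112. Chaserr is known to restrain the expression of Chd2 in cis. The other 4 were 5430416N02Rik (37.3 and 105), Gm9875 (42.7 and 78.8), the region shared by Gm13391 and Gm52546 (44.1 and 74.4), and Gm13421 (31.7 and 115). Their order differed between the libraries, with Gm13391 at the 99.3 percentile of replicate 2 and the 96.4 percentile of replicate 3, and Gm13421 at 95.5 and 99.3.

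At the other end of the range, the region of Gm51681 had fold enrichments of 4.27 and 3.41, at percentiles 0.591 and 1.13. Gm32092 had 4.07 and 4.89, Gm28836 had 5.42 and 5.21, a region of 3300005D01Rik had 6.10 and 4.72, and Gm40109 had 4.58 and 6.19. Their −log10 q-values in replicate 2 ran from 2.53 for Gm32092 to 6.09 for 3300005D01Rik. The 5 narrowest regions, at Gm28836 (173 bp), Gm30120 (209 bp), Gm32092 (211 bp), Gm51681 (217 bp), and Gm40386 (225 bp), included 3 of these 5.

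The widest region belonged to Mir22hg, the host gene of miR-22, at chr11:75458011-75463452. It spanned 5442 bp, held 4 peaks of replicate 2 and 1 of replicate 3, and had fold enrichments of 29.4 and 88.1. The next were at Gm51701 (3388 bp, 35.6 kb from the chemokine receptor gene Ccr1), Gm26947 (3287 bp, just under the 100 kb limit from Unc5b), Gm35413 (3274 bp, 56.0 kb from Klf6), and Gm35167 (3229 bp). Gm35413 had fold enrichments of 23.1 and 87.6. Replicate 2 split 56 of the 601 regions into 2 or more peaks, and replicate 3 split 7.

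Because shared regions rank higher in the longer list by construction, percentile gaps between the libraries lean toward replicate 3, and their direction is no finding. At the 2 ends of the range of gaps were the following regions. Gm30561 had fold enrichments of 4.88 in replicate 2 and 30.2 in replicate 3, a percentile gap of -79.4 (replicate 2 minus replicate 3). Gm11963 (4.27 and 25.4) and 1700127F24Rik (4.74 and 27.03) had gaps of -79.2 and -78.7. At the other end were 12.8 for Gm19705 (23.8 and 21.5), 10.5 for a second region of Gm9875 (10.1 and 7.17), and 7.60 for 2310001H17Rik (23.7 and 27.2). The summits of the first 3 were 16, 17, and 29 bp apart.

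Of 86 lncRNAs listed by name, 20 had a region that met the rule, and 3 of these, Malat1, Dleu2, and Bvht, had 2. Among all lncRNA genes with an end in the distance band, 8.27% had such a region. The list was chosen with earlier results of these data known, so its count does not describe lncRNAs in general. Many were host genes of small nucleolar RNAs, whose transcripts are spliced to release the guide RNAs that direct modification of ribosomal RNA. Such genes were also common in the list, so their number here reflects the list. Other listed host genes had no peak, as given below. Among these, Snhg5 had fold enrichments of 29.7 in replicate 2 and 108 in replicate 3, and Snhg15 had 31.2 and 63.1 over a region of 3089 bp. Snhg12 had 14.4 and 35.1, Snhg17 had 9.49 and 30.1, and Snhg4 had 9.49 and 35.8. Snhg20 was lower, with 7.46 and 15.3. Snhg16 had 6.59 and 56.7, at percentiles 20.7 and 93.3. Its region lay 2.71 kb from Prcd.

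Malat1, an abundant nuclear lncRNA of splicing speckles, had 2 regions near its 5′ end. The one that overlapped the gene (chr19:5802064-5802930), with summits 273 and 44 bp past the start in replicates 2 and 3, had fold enrichments of 5.49 and 16.8, at percentiles 9.46 and 70.6. The other lay upstream (chr19:5803070-5804032), with summits at -963 and -961 bp, and had 15.9 and 20.5, at percentiles 74.3 and 75.4. Replicate 2 thus ranked the upstream region far above the one at the start, while replicate 3 placed them close together. Oip5os1, also called Cyrano, had 21.0 and 44.0, and Norad, a cytoplasmic decoy of Pumilio proteins, had 6.78 and 18.9 in a region of 247 bp. Jpx, an activator of Xist in the X inactivation center, had 6.10 and 25.7. Xist itself had no shared region at an end and carried a single replicate 3 peak with a fold enrichment of 4.56.

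Several listed lncRNAs lie beside growth and cell cycle genes. Pvt1 had a region 47.0 kb from Myc, with fold enrichments of 5.49 and 15.3. Trp53cor1 (lincRNA-p21) had 7.15 and 18.2 and lay 11.7 kb from Cdkn1a, and Lockd had 6.13 and 16.6 and lay 2.74 kb from Cdkn1b. All 3 were below the median of the 601 regions in both libraries. Of the others, Mirt1 had 13.4 and 28.1, and Platr22 had 7.93 and 13.0. Bvht had 2 regions, with 12.8 and 26.7, above both medians, and with 8.01 and 16.8, below them.

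Another 22 listed lncRNAs had a shared region at an end that fell outside the rule because it was close to a coding gene, inside a coding gene body, or far from any coding gene. Neat1, the scaffold of paraspeckles, carried a region of 11581 bp with fold enrichments of 30.2 and 46.6, but 0.113 kb from Frmd8. Snhg8 (52.2 and 104) lay 1.08 kb from Prss12, and Gas5 (36.6 and 113), Tug1 (26.2 and 99.3), and Snhg1 (26.6 and 100.9) overlapped coding gene bodies. Thus several of the most enriched regions at known lncRNAs are not among the 601. A further 7 had a replicate 3 peak only, including Carmn (13.0) and Fendrr (6.84). No peak lay at an end of 25, including Meg3, H19, Hotair, Mir155hg, Mir17hg, and the host genes Snhg11, Snhg14, and Snhg18. This says only that none was called. Of the rest, 9 were not found in the gene table and 3 were not listed there as lncRNAs.

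**Figure D5:**
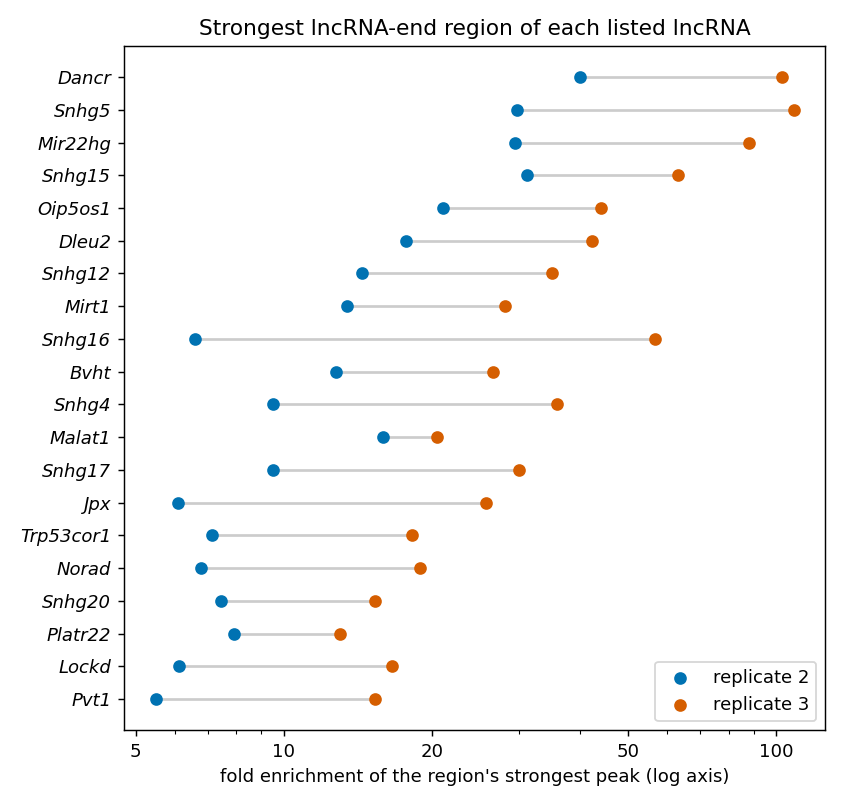
Fold enrichment (horizontal, log axis) of replicate 2 and of replicate 3 at the strongest region of each of the 20 listed lncRNAs with one, joined by a line per gene and ordered by the product of both values. Dancr, Snhg5, and Mir22hg are at the top with 103, 108, and 88.1 in replicate 3, Pvt1 is at the bottom with 15.3, and the scales of the libraries are separate.

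The lncRNAs with a region include host genes of microRNAs, and 7 of the 563 contained a tabled hairpin. The share among other lncRNA genes was not counted, so whether such hosts are more common here is not known. Mir22hg contains miR-22, Dleu2 contains miR-15a and miR-16-1, and E130102H24Rik contains miR-101a, all on the strand of the lncRNA. C430049B03Rik contains miR-322, miR-503, and miR-351 on the X chromosome, but its strand is not in the table. The mature sequences are shown with the seed, bases 2 to 8, in capitals, because the seed sets which messenger RNAs are bound and because miR-15a, miR-16, and miR-322 share it.
mmu-miR-15a-5p: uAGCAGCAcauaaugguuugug
mmu-miR-16-5p: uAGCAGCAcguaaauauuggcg
mmu-miR-322-5p: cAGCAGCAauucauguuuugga
mmu-miR-503-5p: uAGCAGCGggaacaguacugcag
mmu-miR-22-3p: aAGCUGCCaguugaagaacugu
mmu-miR-101a-3p: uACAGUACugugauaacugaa
The first 3 carry 1 seed between them, and miR-503, miR-22, and miR-101a each carry another. Dleu2 had 2 regions near its 5′ end. The one that overlapped the start (chr14:61682078-61683160) had fold enrichments of 13.6 and 21.8, above the median of the lncRNA-end regions in replicate 2 and below it in replicate 3. The one inside the gene (chr14:61680532-61681790), with summits 1387 and 1398 bp past the start, had 17.7 and 42.2, above the median in both. The region at C430049B03Rik had 13.6 and 36.8, and that at E130102H24Rik had 9.49 and 38.1. The remaining hosts were 2900076A07Rik (miR-1839, 15.9 and 58.6), Snhg20 (miR-6516), and Gm26671 (7.32 and 9.12), whose hairpin of miR-6377 lies on the opposite strand. These are levels of acetylation at a gene end, and no microRNA was measured.

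Some lncRNAs had more than 1 region. In all, 65 had at least 2, and 3 had 3 regions each. At 3300005D01Rik, 2 regions near the 5′ end had fold enrichments of 27.1 and 71.7 and, just beyond it, 6.10 and 4.72, while the region at the 3′ end had 20.4 and 46.1. At A630001O12Rik the fold enrichments in replicate 3 were 10.8 and 45.8 for the regions near the 5′ end and 27.2 for the region at the 3′ end. At Gm41359 they were 10.4, 27.7, and 13.4. Regions of 1 lncRNA thus ranged from among the weakest to well above the median. A region can also touch more than 1 lncRNA, as 30 did, and these had median fold enrichments of 13.1 and 34.2.

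The 213 regions at a lncRNA with a curated transcript had median fold enrichments of 10.8 and 29.5, and the 388 at predicted models only had 9.49 and 23.8, with width, CpG content, and kind of end not held equal. Predicted gene ends are less certain in position, which bears on any distance given here.

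The nearest protein-coding gene was a median of 22.2 kb away, and 495 different genes were nearest to at least 1 region. That gene had a shared region at an end of its own for 409 of the 601 regions (68.1%; 64.2% to 71.7%), compared with 67.0% of the other intergenic regions and 44.1% of all coding genes. The share at lncRNA ends was thus close to that of the other intergenic regions, with the latter inside its interval. Where the neighbor had one, the median fold enrichment was 10.2 in replicate 2 and 25.8 in replicate 3, and where it did not, 9.17 and 25.6. The nearest gene on the map is not shown to be a target. Cstad and Msrb3 were each nearest to 4 regions, and 13 genes in all, among them Ctnnb1, Ier5, and Snx9, were nearest to at least 3. Ctnnb1 encodes β-catenin, the effector of Wnt signaling, and its 3 neighboring regions had fold enrichments of 8.17 to 23.0 in replicate 2 and 40.7 to 96.4 in replicate 3.

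Genes of endothelial identity and of the immediate response to stress were among these neighbors. Of the general endothelial genes, 8 were nearest to 12 regions (1.997% of the 601, compared with 2.21% of the other intergenic regions and 1.66% of all shared regions). Gm41428, 42.7 kb from the tight junction gene Cldn5, had 33.9 and 59.2. Gm32688 and Gm17745 near the Ets repressor gene Elk3 had 17.1 and 51.8 and 7.32 and 18.9. Of the shear stress factors, Klf2 had a neighboring region somewhat below the medians (Gm40505, 8.81 and 20.01) and Klf4 one above them (Gm34343, 12.2 and 39.7). Klf6 was the neighbor of Gm35413, described above. Near S1pr1, the receptor of sphingosine 1-phosphate, 2 regions of Gm40124 had 8.68 and 37.1 and 6.10 and 6.19. The regions near Ets1, which is also on the lymphocyte list, had 9.49 and 21.8 (Gm31871) and 13.6 and 13.7 (Gm3331). Those near Lmo2 were weak, with 5.66 and 8.97 (Gm34948) and 5.39 and 13.7 (Lincred1). Of the LSEC markers, only Kdr, the VEGF receptor gene, and Bmp2, the hepatic signal for hepcidin, were nearest to a region. The region near Kdr (Gm32727, 34.6 kb) had 19.2 and 54.4, and that near Bmp2 (Gm14100, 83.9 kb) had 9.76 and 12.7. LSEC markers were nearest to 0.333% of the lncRNA-end regions to 1.14% of the other intergenic regions, and to 0.661% of all shared regions.

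Of the AP-1, stress, and NF-κB genes, 13 were nearest to 17 regions (2.83%, compared with 2.84% of the other intergenic regions and 1.36% of all shared regions). The share was thus that of the intergenic band. Gm14321, 86.0 kb from Cebpb, had 34.2 and 69.8, and A530013C23Rik, 7.47 kb from the same gene, had 4.83 and 13.7. Gm42356 near Errfi1, a feedback inhibitor of the EGF receptor, had 33.9 and 54.4, and Gm29928 near Gadd45a had 23.0 and 74.4. Gm34921 near the ERK phosphatase gene Dusp6 had 21.7 and 47.8, and Gm34777 had 12.9 and 17.1. Gm32409 near Ier3 had 24.5 and 49.2, 5033421B08Rik near Rhob had 16.9 and 47.5, and D730003I15Rik near Atf3 had 15.8 and 49.2. The NF-κB feedback genes Nfkbia and Tnfaip3 had neighbors with 9.52 and 12.4 (Gm36634) and 12.9 and 24.5 (1700124M09Rik). Near Hes1, 4632428C04Rik had 6.71 and 39.7, and near Ier5, 3 regions had 7.93 and 20.9, 7.93 and 18.2, and 16.3 and 39.4. Mirt1 near Dusp5 and Pvt1 near Myc are described above. Isolation of cells is known to induce many of these genes. Its part, and that of any culture after it, was not tested, since no cells fixed in place were measured.

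No region had a hepatocyte, hepatic stellate cell, or Kupffer cell marker as its nearest coding gene. These markers were nearest to 0.0372%, 0.0496%, and 0.0661% of all shared regions, in that order, so a count of 0 among 601 is close to those shares. Epcam, a cholangiocyte marker, was nearest to 2 regions, at Gm46587 (11.0 and 29.2) and Gm46609 (6.10 and 9.44), the same count as for the LSEC markers. Cholangiocyte markers were thus nearest to 0.333% of the lncRNA-end regions, compared with 0.0746% of the other intergenic regions and 0.0331% of all shared regions. Of the lymphocyte list, Klrb1c was nearest to 1 region (Gm34755, 11.7 and 28.0) and Ets1 to the 2 given above. The share was 0.499%, compared with 0.249% and 0.227%. The part of cholangiocytes or lymphocytes in these peaks was not tested.

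The regions were found on every chromosome but Y, from 11 on X to 56 on chromosome 2. Chromosome 2 held 9.32% of them and 7.95% of all shared regions, and X held 1.83% and 2.11%. Only 8 of all shared regions were on Y. Regions on either side of the limits of the rule varied widely in strength. Just inside the 1 kb limit, at 999 bp, were Gm19589 (5.42 and 16.6) and Gm39900 (6.78 and 7.64), and just outside it, at 1007 bp, Gm41913 (17.1 and 43.0) and 1700015I17Rik (6.10 and 14.0). Just beyond 2.5 kb from a coding end were Gm41689 (2.51 kb, 6.40 and 15.7) and Gm41677 (2.53 kb, 30.5 and 86.2), and just short of it LOC115486450 (34.6 and 51.2) and 8430419K02Rik (5.42 and 11.7). Below the limit of 100 kb were Gm26947 (27.1 and 69.0) and Gm30615 (10.8 and 23.1), and past it Gm31904 (14.9 and 39.4) and Gm13848 (7.18 and 9.12).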

How the data were processed

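Peaks were called by the authors on each library separately. Each deposited list holds a score, a fold enrichment (the ratio of signal to background at the summit), p-values and q-values as −log10, and the summit's distance from the peak start. The submitters' processing notes name cutadapt 0.4.4, BWA 0.7.17, Picard 1.67, MACS2 2.0.10, bedtools 2.27.1, and mm10, with no roles. Whether inputs served as controls is not given in the sources used here. The labels describe sonicated chromatin, whereas the paper describes tagmentation.

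Peaks were merged and annotated with pandas 2.3.3 and scipy 1.17.1 with the RefSeq gene table of GRCm38.p6, restricted to the autosomes, X, and Y. A region's fold enrichment is that of its strongest peak per library. Strands, promoters, and microRNAs came from RefSeq. No genome was at hand, so exons, introns, and region sequences were not used. Regions are not replicates, so values are counts, medians, and 95% Wilson intervals that cover counting error only.

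Members and gene lists were chosen with earlier results of these data known. Named regions were the 10 highest and 5 lowest by mean percentile, the 5 widest and 5 narrowest, the 3 largest percentile gaps each way, those at listed lncRNAs or near listed genes, those of lncRNAs or coding genes with several, and those beside a limit. Values in the form "x and y" are the fold enrichments in replicate 2 and replicate 3.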

Additional observations from a re-analysis of the deposited data

How the results depend on the processing

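The counts of regions and genes, the medians of fold enrichment, percentile, and width, and the shares of shared regions and of genes were recomputed, with no test involved. Ranking by −log10 p was tried for percentiles only, the median over a region's peaks for fold enrichment only, and the omission of lncRNA genes that overlap coding bodies for the counts only. The other values in the text were computed under 1 setting. When peaks had to overlap by 50% of each, 319 regions at 322 lncRNA genes remained, 21.3% of the merged regions and 4.75% of the eligible genes. A q-value of 1e-05 or less left 7.57% of genes with a region. With the 26975 strongest peaks of each library, 69.6% of merged regions were shared, 7.40% of genes had a region, and the median percentile in the replicate 3 list was 56.6. A window of 500 bp gave shares of 43.4% of regions and 6.495% of genes. A window of 2.5 kb gave 939 regions and shares of 36.3% and 11.9%. Replicate 2 alone gave 613 regions, 533 genes, 7.84% of eligible genes, and a median width of 331 bp. Replicate 3 alone gave 1501 regions, 1181 genes, 17.3% of eligible genes, and a median width of 371 bp. The median width was 696 bp when merged. Without replicate 2, the median fold enrichment in replicate 3 was 10.0 and the median percentile 54.4. Without replicate 3, the medians in replicate 2 were 9.49 and 47.8. One library gives no shared share and no value for the library left out. Of 72 alternative values, 20 moved and 52 stayed within 1.5 times the count, the interval of the share, or the spread between the libraries. That spread is wide (11.3 for fold enrichment and 21.7 for percentile) and comes from libraries on separate scales. For fold enrichment it is larger than the replicate 2 median itself (9.70). No lower value of that median could have counted as moved. The 52 are therefore no measure of how stable the medians of fold enrichment and percentile are. No paired analysis was possible because both H3K27ac libraries belong to 1 condition and the inputs were not analysed here. With 2 libraries of unknown depth, a region missing from replicate 2 cannot be told apart from one below its detection.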
